A study of Mus musculus with 21 samples.

Results

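Foxp1 encodes a transcription factor of the forkhead family and is 1 of the 31053 genes counted in this series. It was chosen by its counts, which were higher in the LIF LP libraries than in the 2i+LIF LP libraries. Every Foxp1 value that sets these groups against others is therefore given below as a description and without a test. The gene was found by its Ensembl identifier, ENSMUSG00000030067. All groups were of the line E14Tg2a, male mouse embryonic stem cells with a 129 background, in which 1 allele of the Rex1 locus carries the reporter GFPd2. The 21 libraries formed 7 groups of 3 replicates, named by a medium and a passage label: 2i+LIF PO, 2i+LIF LP, CH+LIF LP, LIF LP, 2i+LIF HP, CH+LIF HP and LIF HP. CH denotes CHIR99021, which blocks GSK3 and so raises Wnt signalling. PD denotes PD0325901, which blocks MEK, and 2i usually means the use of both. LIF is a cytokine that acts through STAT3. The cells were first kept in the serum-free medium NDiff227 with both inhibitors, and the drugs were then given and withdrawn in turn, by a protocol worded alike for every library. That wording gives CHIR99021 at 3 µM and 1 week of maintenance for all groups, also those named LIF. Samples came from zero passage and from 1 and 2 months of culture. PO was read as zero passage, and the labels do not say which of LP and HP is the longer culture. The labels do not say that replicates were separate cultures, so the tests measure the spread between these libraries, which may be technical.

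FOXP1 binds DNA through its forkhead domain, pairs with itself or with FOXP2 and FOXP4 through a leucine zipper, and mostly represses its targets together with corepressors such as CTBP1 and the NuRD complex. In embryonic stem cells an alternatively spliced form with an exchanged exon in the forkhead domain has been described; it binds other sites than the usual form and favours pluripotency genes, and MBNL proteins act against the inclusion of that exon. The counts are sums over the whole gene and do not tell these forms apart.

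Foxp1 lies on the minus strand of chromosome 6 from 98925338 to 99522721 (GRCm38, GENCODE M21) and spans 597.4 kb, with 34 merged exon stretches of 13751 bases in all. GENCODE lists 31 transcripts for it, of which 20 code for protein. RefSeq (GRCm38.p6) places transcript starts at 99520993, 99266515 and 99028298. Bases upstream of each start, outside every annotated Foxp1 exon, are shown because they lie beside the RefSeq starts of the gene; GENCODE places the 5′ end of the gene further upstream, so transcripts may also begin elsewhere. The stretches end 169, 17 and 15 bases before starts 1, 2 and 3. They are written 5′ to 3′ on the gene's strand, and capitals mark the only motif match.
Foxp1 start 1, chr6:99521163-99521243: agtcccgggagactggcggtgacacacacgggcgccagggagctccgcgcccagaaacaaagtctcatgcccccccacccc
Foxp1 start 2, chr6:99266533-99266765: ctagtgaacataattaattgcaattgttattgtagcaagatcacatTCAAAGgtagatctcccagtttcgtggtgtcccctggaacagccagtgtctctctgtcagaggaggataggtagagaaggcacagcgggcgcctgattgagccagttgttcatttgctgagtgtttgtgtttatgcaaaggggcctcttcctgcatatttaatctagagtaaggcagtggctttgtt
Foxp1 start 3, chr6:99028314-99028548: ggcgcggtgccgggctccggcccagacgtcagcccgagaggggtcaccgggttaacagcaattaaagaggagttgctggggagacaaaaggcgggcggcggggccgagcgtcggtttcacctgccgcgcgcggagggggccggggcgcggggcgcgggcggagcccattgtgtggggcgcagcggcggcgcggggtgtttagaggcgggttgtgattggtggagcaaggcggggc

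The printed stretches differ in base composition. The GC content was 69.1% at start 1, 45.1% at start 2 and 72.8% at start 3. In the full 300-base windows (250 bases before to 50 after the start) there were 13, 5 and 44 CpG dinucleotides, against a median of 7 over the windows of all genes, whose median GC content was 52.7%. Of 3 motifs searched on both strands, the TCF/LEF core CTTTGA, which the Wnt effectors bind, matched once, at position -204 from start 2, where it reads as TCAAAG on the printed strand. That core is in 16.0% of 32851 such windows. The forkhead core TGTTTAC (3.65% of windows) and the STAT pattern TTCNNNGAA (8.30% of windows) had no match in these letters. The gene totals do not show which start was used.

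Foxp1 counts were low in most libraries and high in the 3 libraries labelled LIF LP. Of 1329 Foxp1 counts in the series, 929 (69.9%) came from LIF LP and 400 from the other 18 libraries. Levels are given as CPM, the counts-per-million of each library after TMM scaling. The LIF LP replicates had 343, 252 and 334 counts, or 188.9, 167.3 and 160.6 CPM. They lay close together, with a mean of 172 ± 14.8 CPM (SD, n = 3) and a coefficient of variation of 8.58%, where counting error alone gives 5.73%. The next group, CH+LIF LP, had 24.7, 26.0 and 9.11 CPM (51, 43 and 12 counts), a mean of 19.9 ± 9.41 CPM (SD, n = 3). Its highest replicate was far under the lowest LIF LP replicate. The 2i+LIF LP replicates, the other side of the contrast that chose the gene, had 2.10, 6.03 and 17.9 CPM (3, 14 and 32 counts) and a mean of 8.67 ± 8.22 CPM (SD, n = 3).

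At HP, Foxp1 was low in all media. The LIF HP replicates had 14.4, 5.54 and 16.5 CPM (28, 9 and 16 counts), a mean of 12.2 ± 5.82 CPM (SD, n = 3). The CH+LIF HP replicates had 5.84, 9.06 and 9.14 CPM (9, 19 and 12 counts), a mean of 8.01 ± 1.88 CPM (SD, n = 3). The 2i+LIF HP replicates had 1.39, 12.0 and 9.58 CPM (3, 22 and 10 counts), a mean of 7.66 ± 5.56 CPM (SD, n = 3). These 3 groups overlapped one another. At zero passage, 2i+LIF PO had 36.4, 4.44 and 7.73 CPM (69, 17 and 31 counts), a mean of 16.2 ± 17.6 CPM (SD, n = 3), so that replicate 1 alone stood well above the other replicates. With 3 counts each, replicate 1 of 2i+LIF LP and replicate 1 of 2i+LIF HP have 95% exact Poisson intervals of 0.434 to 6.15 CPM and 0.288 to 4.07 CPM; these cover counting error only.

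**Figure D1:**
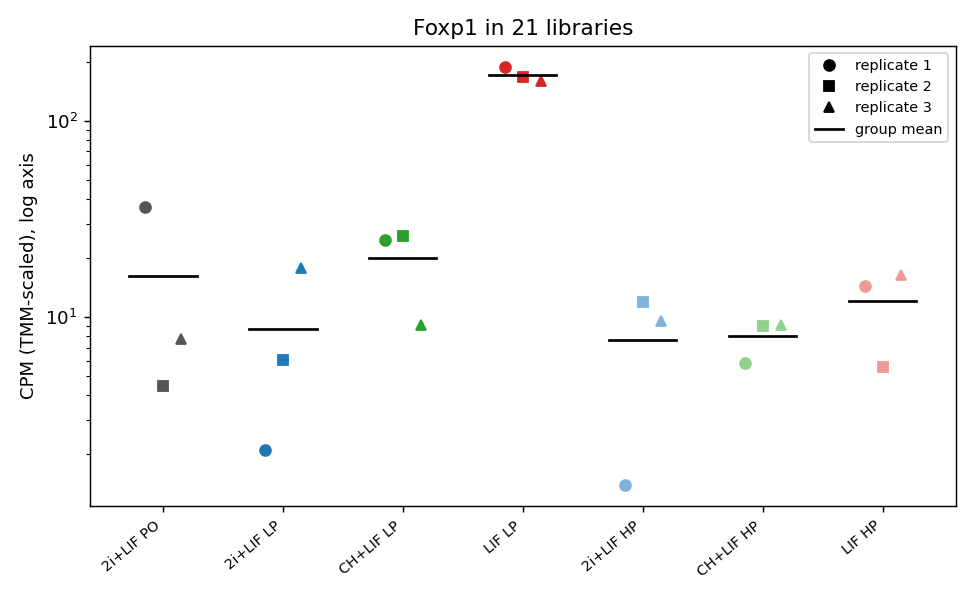
Foxp1 level in each of the 21 libraries, in CPM on a log axis, by group; the marker shape gives the replicate number and the bar the group mean. The LIF LP libraries lie between 160.6 and 188.9 CPM, and all others lie at or below 36.4 CPM.

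The order of group means was LIF LP, CH+LIF LP, 2i+LIF PO, LIF HP, 2i+LIF LP, CH+LIF HP and 2i+LIF HP. The LIF LP mean was 8.64 times that of CH+LIF LP, 10.6 times that of 2i+LIF PO, 14.2 times that of LIF HP, 19.9 times that of 2i+LIF LP, 21.5 times that of CH+LIF HP and 22.5 times that of 2i+LIF HP. Every neighbouring pair below LIF LP overlapped in its replicates. The lowest LIF LP library was 4.41 times the highest other library, replicate 1 of 2i+LIF PO, and 6.17 times the next one, replicate 2 of CH+LIF LP. Without TMM scaling the lowest LIF LP library was 6.32 times the highest other one, which was then replicate 1 of CH+LIF LP. All 3 LIF LP libraries lay above all 18 others for 108 of 10643 tested genes (1.01%), and with a gap at least as wide as that of Foxp1 for 2 genes (0.0188%), Foxp1 and Fgf1 (5.15-fold), which encodes a fibroblast growth factor. Since Foxp1 was chosen for a high level in LIF LP, this place is a description.

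Between LIF LP and other groups the fitted log2 fold changes of Foxp1 were large. LIF LP exceeded 2i+LIF LP by 4.29 (SE 0.71, 95% interval 2.82 to 5.75), the contrast used to choose it, in which 52 of the tested genes (0.489%) were called at an adjusted p of 0.05, 12 of them (0.113%) higher; nothing is read from the place of Foxp1 in that contrast. LIF LP exceeded CH+LIF LP by 3.09 (SE 0.66, 95% interval 1.73 to 4.45), where 5 genes (0.047%) were called in either direction. LIF LP exceeded 2i+LIF PO by 3.48 (SE 0.67, 95% interval 2.10 to 4.85), where 12% of genes were called. LIF HP lay below LIF LP by a log2 fold change of -3.84 (SE 0.70, 95% interval -5.28 to -2.40), a contrast in which 1060 genes (9.96%) were called, 567 (5.33%) higher and 493 (4.63%) lower.

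Outside LIF LP and 2i+LIF LP, 8 contrasts among 5 groups compared none of the libraries that chose the gene and could be tested. Foxp1 passed the threshold in none of them by edgeR's quasi-likelihood test with Benjamini-Hochberg adjustment over 10643 genes, in none at an unadjusted p under 0.05, and in none by DESeq2. By contrast, 2621 genes (24.6%) were called in at least 1 of the 8. The replicates overlapped in all 8. The spread in these tests was estimated from all 21 libraries, LIF LP and 2i+LIF LP included. The tests are therefore not wholly separate from the choice. With only the groups compared in the fit, Foxp1 passed in none either.

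Among media at HP, Foxp1 in CH+LIF differed from 2i+LIF by a log2 fold change of 0.12 (SE 0.75, 95% interval -1.43 to 1.67, adjusted p 0.977 by edgeR), with 2.02% of genes called. In LIF HP against CH+LIF HP the value was 0.57 (SE 0.73, 95% interval -0.93 to 2.07, adjusted p 0.774 by edgeR), with 1.47% called. In LIF HP against 2i+LIF HP it was 0.69 (SE 0.74, 95% interval -0.83 to 2.21, adjusted p 0.648 by edgeR), with 3.78% called. The upper bounds correspond to folds of 3.18, 4.19 and 4.63, and differences up to that size lie within the intervals. The LIF HP against 2i+LIF HP value was 0.13 without replicate 1 of 2i+LIF HP and 1.33 without replicate 2, and that of CH+LIF HP against 2i+LIF HP was -0.44 and 0.76. The joint test of any Foxp1 difference among HP media gave an adjusted p of 0.804 by edgeR, with 5.12% of genes called.

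In CH+LIF, Foxp1 at HP against LP had a log2 fold change of -1.32 (SE 0.70, 95% interval -2.76 to 0.12, adjusted p 0.998 by edgeR). Only 1 gene (0.0094%) was called in that contrast. In 2i+LIF the value for HP against LP was -0.25 (SE 0.74), a description since 2i+LIF LP took part in the choice.

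Against zero passage, Foxp1 had a log2 fold change of 0.39 in CH+LIF LP (SE 0.65, 95% interval -0.95 to 1.72, adjusted p 0.761 by edgeR), with 8.31% of genes called. It was -1.06 in 2i+LIF HP (SE 0.71, adjusted p 0.357 by edgeR, 10.6% called), -0.94 in CH+LIF HP (SE 0.70, adjusted p 0.453 by edgeR, 5.82% called) and -0.37 in LIF HP (SE 0.68, adjusted p 0.765 by edgeR, 12.3% called). These 4 values rest on replicate 1 of 2i+LIF PO, in which mitochondrial genes took 39.1% of counts and Foxp1 was at 36.4 CPM. Without that library alone, CH+LIF LP against PO was 1.71 and missed the threshold, and the HP groups lay above PO, by 0.26, 0.39 and 0.93. The joint test of the 5 groups then gave an adjusted p of 0.136 by edgeR. With both libraries that stand apart left out, CH+LIF LP against PO passed the threshold (1.70, adjusted p 0.0345 by edgeR) and so did the joint test of the 5 groups (adjusted p 0.0445, against 0.368 with all libraries, where 18.9% of genes were called). PO was also sequenced in another run than all other groups, by the run numbers in the file names, so run and PO cannot be told apart.

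**Figure D2:**
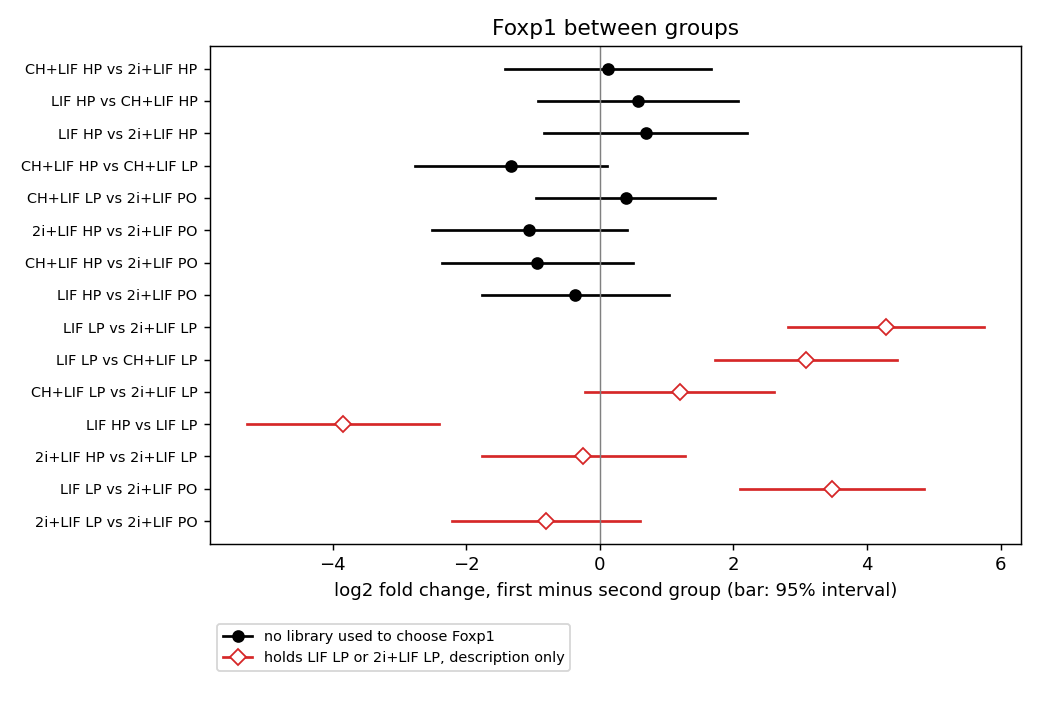
Log2 fold change of Foxp1 between groups (first minus second), with 95% intervals. Black circles are the 8 contrasts that compare none of the libraries that chose the gene, all with intervals that hold 0. Open red diamonds are the 7 that hold LIF LP or 2i+LIF LP and are descriptions, from -3.84 to 4.29.

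Gene counts per library ranged from 1132126 to 3783043, with a median of 1763531. Apart from replicate 1 of 2i+LIF PO, replicate 1 of 2i+LIF LP stood apart, with 31.7% of counts in Gm42418, a gene that overlaps ribosomal RNA sequence. None of the LIF LP libraries did: mitochondrial genes took 2.74 to 8.01% of their counts and Gm42418 5.65 to 10.6%. Reads outside genes made up 17.0 to 24.6% of LIF LP entries and 8.46 to 25.8% over all libraries, and their part in the Foxp1 level was not tested. Responses to the inhibitors did not follow every label: Dusp6, an ERK target, was at 0 to 1.23 CPM in LIF HP, which should lack the MEK inhibitor, and at 15.3 to 47.1 CPM in LIF LP. Axin2, a Wnt target, was at 0, 4.84 and 10.6 CPM in CH+LIF LP and at 4.77 to 6.49 CPM in CH+LIF HP, which should hold CHIR99021, against 48.8 to 73.6 CPM in 2i+LIF HP and 6.18 to 12.4 CPM in LIF HP. The 2i+LIF LP libraries should hold the MEK inhibitor. Of 11 tested MEK-ERK targets, 5 were called higher there than in 2i+LIF PO, where 539 of 10643 genes were called in either direction. In 2i+LIF HP against 2i+LIF LP, 5 were called lower, with 391 genes called. In LIF LP against 2i+LIF LP, 0 were called, with 52 genes called. The group names are therefore used as labels only.

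Little of the counted sequence of Foxp1 is shared with other genes. The one counted gene that overlaps it, Gm20696, shares 300 exon bases and had 17 counts in the series. Annotated genes outside the counted identifiers were not searched for overlap. Of 14132 50-base stretches in Foxp1 exons, 342 (2.42%) occur in another gene, and none in Foxp2, Foxp3 or Foxp4.

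The other Foxp genes did not share the pattern. Foxp2, best known from the nervous system, had no count in any library, which allows up to 3 of 40020221 counts, or 0.075 CPM, over all libraries together and up to 0.643 CPM within a single group. Foxp3, the factor of regulatory T cells, had 2 counts, both in replicate 3 of 2i+LIF LP. Foxp4, the partner of FOXP1 on chromosome 17 (47867133 to 47924645), was measured throughout with 1370 counts. Its LIF LP replicates had 23.1, 32.5 and 36.6 CPM, inside the range of 13.4 to 81.8 CPM over all libraries. The 2i+LIF LP replicates of Foxp4 were spread widely, at 50.5, 81.8 and 21.2 CPM, and the 50.5 CPM came from the library that stands apart. LIF LP against CH+LIF LP gave a log2 fold change of 0.01 for Foxp4, and LIF LP against 2i+LIF LP gave -0.74. In the 8 tested contrasts the adjusted p of Foxp4 ranged from 0.321 to 1 by edgeR.

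Genes beside Foxp1 on chromosome 6 were also read. Of 6 counted protein-coding genes that start within 1 Mb of either end, only Rybp, a Polycomb subunit gene, could be tested for its counts. Rybp had 5.51, 14.6 and 10.6 CPM in LIF LP, of which the lowest lay just under the 6.31 to 26.3 CPM of the other libraries. It had a log2 fold change of -0.42 in LIF LP against 2i+LIF LP, and an adjusted p of at least 0.681 by edgeR in the 8 tested contrasts. Gpr27, an orphan receptor gene, had 9.36, 3.32 and 4.81 CPM in LIF LP, and its group mean of 5.83 ± 3.15 CPM (SD, n = 3) was the highest of the 7 but overlapped that of CH+LIF LP (3.85 ± 3.39 CPM, SD, n = 3). Eif4e3, a cap-binding protein gene, had 0 to 4 counts per library. Gm765, Prok2 and Gm20696 had 1, 1 and 17 counts in all.

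**Figure D3:**
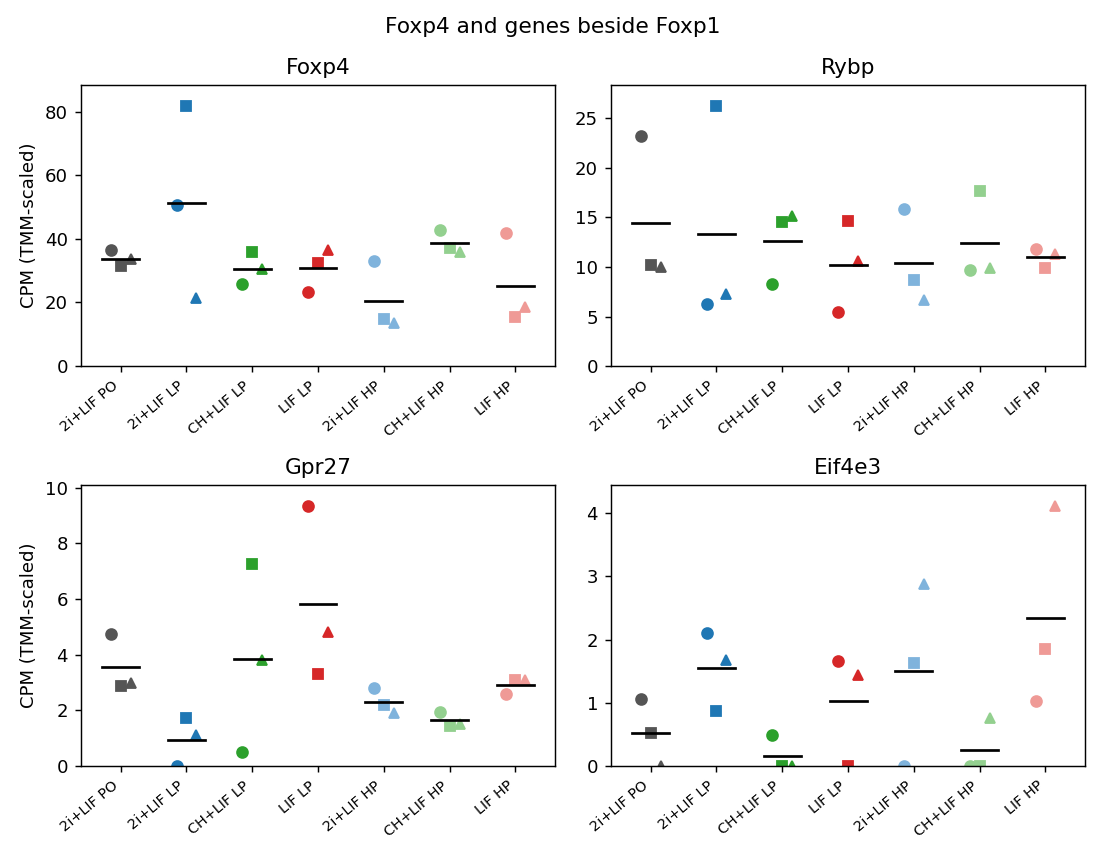
CPM per library (linear axes, replicates as circle, square and triangle, bar for the group mean) of Foxp4 and of 3 genes beside Foxp1. In Foxp4, Rybp and Eif4e3 the LIF LP libraries overlap the others; Gpr27 has its highest library, 9.36 CPM, in LIF LP.

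The genes whose log2 CPM ran most like Foxp1 over the 21 libraries were Stox2 (Pearson r = 0.874), Spink1 (0.856), P2rx2 (0.856), Camta1 (0.829) and Pdyn (0.826), among 10515 genes with a group mean of at least 5 CPM in 1 group. These correlations are descriptions: the points share library depth and the LIF LP group. Spink1, P2rx2 and Pdyn met that minimum through LIF LP alone and had few counts elsewhere, so no r is given for them without it. Over the 15 libraries outside LIF LP and 2i+LIF LP the r of Stox2 and Camta1 was 0.554 and 0.719. Stox2, a winged-helix protein gene, averaged 24.3 ± 7.14 CPM (SD, n = 3) in LIF LP and 4.30 to 7.11 CPM in the other groups. Camta1, a calmodulin-binding transcription activator gene, averaged 95.6 ± 35.0 CPM (SD, n = 3) in LIF LP and 22.4 to 53.8 CPM elsewhere. Spink1, a trypsin inhibitor gene, averaged 15.1 ± 5.02 CPM (SD, n = 3) in LIF LP and at most 1.41 CPM elsewhere. P2rx2, an ATP-gated channel gene, averaged 5.96 ± 0.66 CPM (SD, n = 3) in LIF LP and at most 3.79 CPM elsewhere, the latter in CH+LIF LP. Pdyn, which encodes an opioid peptide precursor, averaged 16.6 ± 9.19 CPM (SD, n = 3) in LIF LP and at most 2.11 CPM elsewhere. All 5 had their highest mean in LIF LP, which their choice by r largely fixes.

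The least like genes ran against Foxp1: Slc4a5 (r = -0.902), Asns (-0.868), Gstm2 (-0.840), Trpm1 (-0.823) and Bcat1 (-0.822). Slc4a5, a bicarbonate transporter gene, averaged 8.01 ± 4.45 CPM (SD, n = 3) in LIF LP and 24.3 to 57.6 CPM elsewhere. Asns, asparagine synthetase, averaged 97.6 ± 17.7 CPM (SD, n = 3) in LIF LP and 219 to 425 CPM elsewhere. Bcat1, a branched-chain amino acid transaminase, averaged 112 ± 25.9 CPM (SD, n = 3) in LIF LP and 271 to 385 CPM elsewhere. Trpm1, a cation channel gene, averaged 2.17 ± 1.97 CPM (SD, n = 3) in LIF LP, 18.3 CPM in CH+LIF LP and 116 CPM in 2i+LIF PO. Over the 15 libraries outside LIF LP and 2i+LIF LP, the r of Slc4a5, Asns, Gstm2, Trpm1 and Bcat1 was -0.702, -0.688, -0.658, -0.354 and -0.407.

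**Figure D4:**
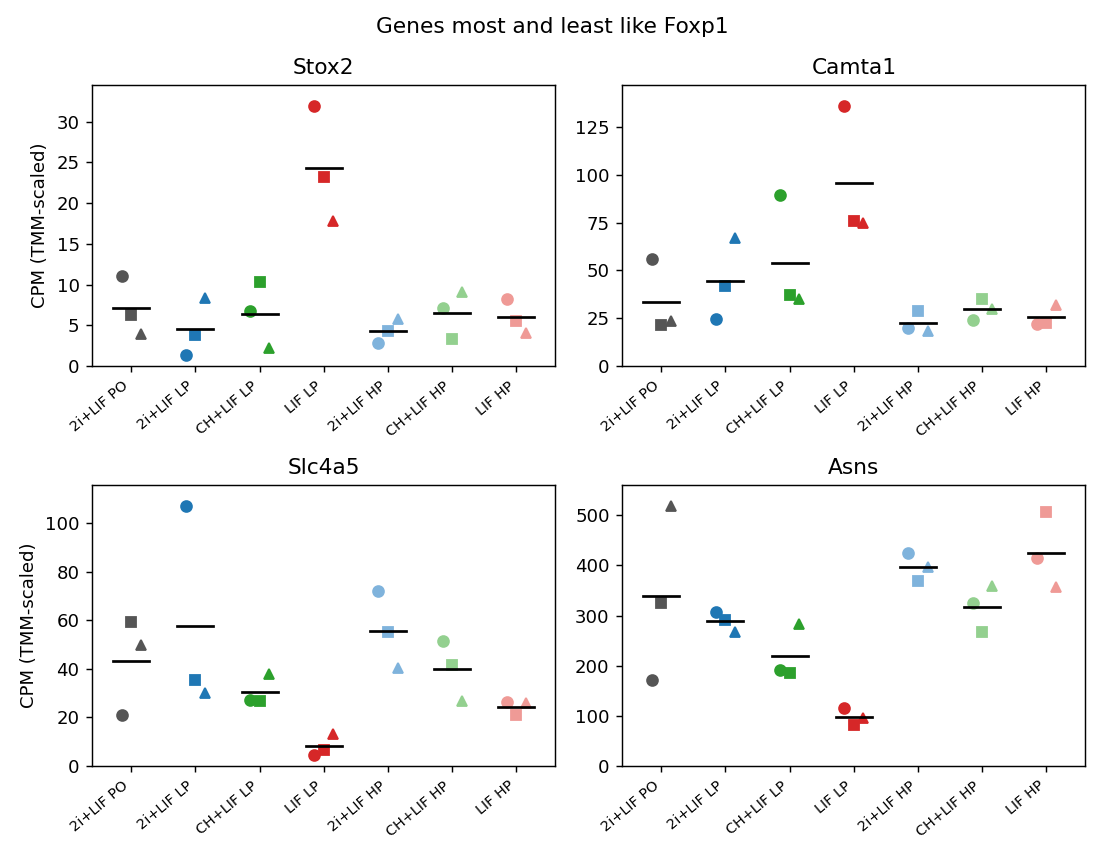
CPM per library (linear axes, replicates as circle, square and triangle, bar for the group mean) of 2 of the genes most like Foxp1, Stox2 and Camta1, and 2 of the least like, Slc4a5 and Asns. The LIF LP means are 24.3, 95.6, 8.01 and 97.6 CPM.

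The corepressor and partner genes of FOXP1 were all measured. All 10 listed were tested, and 5 (Ctbp2, Gatad2b, Hdac1, Hdac2 and Ncor1) passed the threshold in at least 1 of the 8 contrasts, each time lower than PO. Of all tested genes, 24.6% passed in at least 1. Without replicate 1 of PO, Ncor1, Hdac1, Ctbp2 and Gatad2b no longer passed (adjusted p 0.250, 0.127, 0.132 and 0.119 by edgeR). Their log2 fold changes then went from -2.09 to -0.73 for Ncor1, from -1.37 to -0.91 for Hdac1, from -1.15 to -0.95 for Ctbp2 and from -1.13 to -0.98 for Gatad2b. The calls also failed elsewhere: over 30 other settings that of Gatad2b was lost in 17, Ctbp2 in 14, Hdac1 in 7 and Ncor1 in 4. The call of Hdac2 (adjusted p 0.0452 by edgeR in LIF HP against PO) was not followed over these settings. Without replicate 2 of LIF HP, Gatad2b was at -0.80 (adjusted p 0.229 by edgeR). Over the list, the median log2 fold change in LIF LP against 2i+LIF LP was -0.20, against 0.02 over all tested genes, and in LIF LP against CH+LIF LP it was -0.03 for both. In LIF HP against LIF LP, where Foxp1 was lower, Ctbp2 (-1.32, SE 0.38, adjusted p 0.0262 by edgeR) and Hdac2 (-1.02, SE 0.29, adjusted p 0.0278 by edgeR) fell, as did 4.63% of all tested genes.

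Among splicing regulators, Mbnl2 and Mbnl1, which act against the stem cell exon of Foxp1, had an r with Foxp1 of 0.775 and 0.680 over 21 libraries and 0.618 and 0.457 over the 15. For Mbnl3, of the same family, r was 0.021 and -0.034. Mbnl1 averaged 34.5 ± 9.74 CPM (SD, n = 3) in LIF LP and 7.03 ± 2.06 CPM (SD, n = 3) in LIF HP, a log2 fold change of -2.26 (SE 0.56, adjusted p 0.0116 by edgeR). Mbnl2 averaged 132 ± 43.3 CPM (SD, n = 3) in LIF LP and 64.1 ± 14.2 CPM (SD, n = 3) in LIF HP, and this difference missed the threshold (-1.03, SE 0.44, adjusted p 0.135 by edgeR). Of 9 tested genes of this list, Mbnl3 alone passed in the 8 contrasts, against 24.6% of all tested genes; it was higher in 2i+LIF HP than in PO (2.36, SE 0.67, adjusted p 0.0242 by edgeR). That call was lost in 5 of 30 other settings, among them without replicate 2 or 3 of PO or replicate 3 of 2i+LIF HP, with an adjusted p of up to 0.154 by edgeR.

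Genes described as targets of FOXP1 in stem cells were at levels that differed in order from those of Foxp1. Of 5 listed for the stem cell form, Tdgf1, a Nodal co-receptor, Nr5a2, Nanog and Pou5f1, all pluripotency factors, passed in at least 1 of the 8 contrasts, against 24.6% of all tested genes. For Tdgf1, in LIF HP against 2i+LIF HP, the call held in 30 of 30 other settings. For Nr5a2 and Nanog, in 2i+LIF HP against PO, it was lost in 2 and 3 of 30 (adjusted p up to 0.0725 and 0.137 by edgeR), among them without replicate 3 of 2i+LIF HP for both and without replicate 2 of PO for Nanog. For Pou5f1, in LIF HP against PO, it was lost in 5 of 30 (adjusted p up to 0.136 by edgeR): without any 1 of the PO replicates and without replicate 2 or 3 of LIF HP. Tdgf1 averaged 507 ± 71.5 CPM (SD, n = 3) in LIF LP and 549 ± 106 CPM (SD, n = 3) in LIF HP, while Foxp1 went from 172 to 12.2 CPM. Only 2i+LIF HP was low for Tdgf1, at 36.5 ± 27.7 CPM (SD, n = 3). Nanog averaged 199 ± 54.4 CPM (SD, n = 3) in LIF LP, 388 ± 165 CPM (SD, n = 3) in LIF HP and 449 ± 136 CPM (SD, n = 3) in PO. Of 5 listed for the usual form, only Gas1 and Bik had enough counts to be tested, and both passed in at least 1 of the 8 contrasts, higher than PO. Gas1, a growth arrest gene, averaged 10.7 ± 4.77 CPM (SD, n = 3) in LIF LP and 9.01 ± 5.21 CPM (SD, n = 3) in 2i+LIF HP, but 2.51 ± 0.96 CPM (SD, n = 3) in LIF HP and 0.42 ± 0.38 CPM (SD, n = 3) in PO. Bik, a pro-apoptotic BCL2 family gene, averaged 4.47 ± 1.41 CPM (SD, n = 3) in LIF LP, 4.73 ± 3.51 CPM (SD, n = 3) in LIF HP and 0.43 ± 0.40 CPM (SD, n = 3) in PO. Its call in LIF HP against PO was lost in 7 of 28 other settings, among them without any 1 replicate of PO and without replicate 1 or 2 of LIF HP (adjusted p up to 0.188 by edgeR). Among 9 tested of 17 other forkhead genes, Foxd3 and Foxo3 passed in at least 1 of the 8 contrasts, a share near the 24.6% of all tested genes. Both were lower than in PO, and Foxd3 was also higher with CH+LIF than with 2i+LIF at HP. The Foxo3 call in CH+LIF HP against PO was lost without replicate 2 of CH+LIF HP (adjusted p 0.0710 by edgeR). Foxo3 averaged 33.3 ± 5.59 CPM (SD, n = 3) in LIF LP and 24.2 to 71.5 CPM elsewhere.

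Targets of the signals that the media act on were read beside Foxp1. Of 11 tested MEK-ERK targets, 8 fell in LIF HP against LIF LP, where 4.63% of all tested genes fell, with a median log2 fold change of -2.39, against 0.01 over all tested genes. In LIF LP against CH+LIF LP, where Foxp1 was higher, the median of the list was -0.17. Of 10 tested Wnt targets, 3 rose in LIF HP against LIF LP, Axin2, Sp5 and Cdx1, where 5.33% of all tested genes rose, with a median of 3.24. Axin2 was at 0 to 1.33 CPM in LIF LP. The lowest r with Foxp1 among all listed genes were those of Axin2 (-0.669) and Sp5 (-0.617), and over the 15 libraries outside the choice they were -0.340 and -0.298. In LIF LP, CH+LIF LP and 2i+LIF HP, Sp5 averaged 0.37, 1.03 and 361 CPM, and Foxp1 172, 19.9 and 7.66 CPM. The part of these signals in the Foxp1 level was not tested. In LIF LP against 2i+LIF LP, the contrast that chose Foxp1, the median was -3.05 over the Wnt targets, 0.10 over the MEK-ERK targets and -0.06 over 7 tested LIF-STAT3 targets, against 0.02 over all tested genes. There 2 of the 10 Wnt targets, Axin2 and Sp5, were called, both lower, against 0.489% of all tested genes in either direction.

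Markers of other cell types were summed per library, since in bulk samples a changed share of cells and a changed level per cell cannot be told apart. The sum of 7 pluripotent markers was 1362 to 1452 CPM in LIF LP, inside the range of the other groups, with none at 0. The sum of 5 neural markers (4 of them tested) was 196 to 207 CPM in LIF LP. It was 109 to 236 CPM in 2i+LIF LP, 129 to 136 CPM in CH+LIF LP, 19.0 to 64.3 CPM in PO, 33.5 to 149.2 CPM in 2i+LIF HP, 46.7 to 58.6 CPM in CH+LIF HP and 91.1 to 133 CPM in LIF HP. The sum in LIF LP lay above every library outside 2i+LIF LP. The highest single library was replicate 1 of 2i+LIF LP at 236 CPM, which stands apart by its Gm42418 share and had Foxp1 at 2.10 CPM. Pax6 was at 0 in PO, and Neurod1 in 2i+LIF HP and LIF HP. Sox1, an early neural factor, averaged 48.7 ± 7.99 CPM (SD, n = 3) in LIF LP and at most 18.2 CPM elsewhere. It fell in LIF HP against LIF LP by 2.82 on the log2 scale (SE 0.73, adjusted p 0.0154 by edgeR). Of the 4 tested neural markers, 1 was called lower there, against 4.63% of all tested genes. The r with Foxp1 over 21 libraries was 0.775 for Sox1, 0.641 for Map2, 0.263 for Pax6 and 0.060 for Tubb3. Over the 15 libraries outside LIF LP and 2i+LIF LP it was 0.548, 0.260, -0.085 and -0.313. The part of neural cells in the Foxp1 level was not tested.

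**Figure D5:**
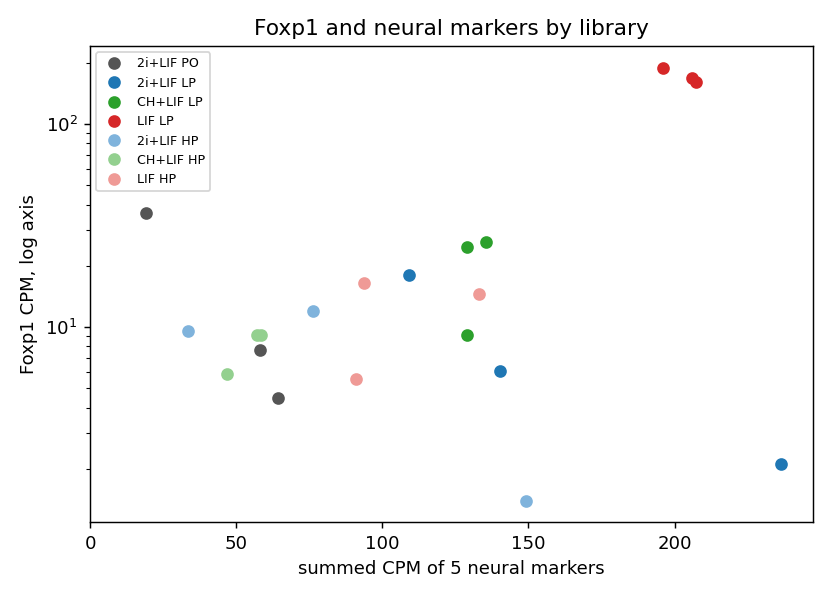
Foxp1 level (CPM, log axis) against the summed CPM of 5 neural markers, 1 point per library, coloured by group. The LIF LP points lie at 196 to 207 CPM of neural markers and at 160.6 CPM of Foxp1 or more; 1 library of 2i+LIF LP, which stands apart by its Gm42418 share, has a higher neural sum and 2.10 CPM of Foxp1.

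The sum of 5 formative epiblast markers was 58.4 to 73.6 CPM in LIF LP and 20.6 to 24.2 CPM in LIF HP, where Fgf5 and Pou3f1 were at 0. It was 61.0 to 103 CPM in 2i+LIF LP, 84.1 to 147.3 CPM in CH+LIF LP, 57.2 to 76.6 CPM in CH+LIF HP, 18.2 to 52.5 CPM in 2i+LIF HP and 39.0 to 68.3 CPM in PO, with none at 0 in these groups or in LIF LP. This sum and Foxp1 both had lower values in LIF HP than in any LIF LP library, and the part of such cells in the Foxp1 level was not tested. The sums of 6 fibroblast markers were 12.6 to 44.6 CPM in LIF LP and 4.21 to 28.4 CPM elsewhere, with Col3a1 at 0 in LIF LP. Those of 6 primitive endoderm markers were 0.96 to 4.96 CPM, with Sox17, Pdgfra and Foxa2 at 0. Those of 5 trophoblast markers were 1.10 to 1.44 CPM, with Cdx2, Elf5 and Hand1 at 0, and those of 5 mesendoderm markers were 3.32 to 11.6 CPM, with T, Mixl1, Mesp1 and Gsc at 0. The 4 markers of 2-cell-like cells summed to 1.10 to 3.37 CPM.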

How the data were processed

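Total RNA of 21 libraries was sequenced. The authors deposited whole-number gene counts per library, not normalized, which the submitters' processing notes tie to bcl2fastq, STAR 2.6.0a, HTSeq and mm10; annotation, strand setting and filters are not given in the sources used here. Of 31053 identifiers, 31011 were found in GENCODE M21 and 42 were not. The 5 closing entries stayed out of sizes and tests. All 21 libraries entered 1 edgeR 4.0.16 quasi-likelihood fit (R 4.3.3, a coefficient per group, 14 residual degrees of freedom, TMM, filterByExpr, 10643 genes), with two-sided tests and Benjamini-Hochberg adjustment per contrast at 0.05. Log2 CPM used a prior count of 2. Foxp1, the gene lists and the tests were chosen with earlier results of these data known. Named genes were the Foxp family, the 5 most and 5 least like genes, neighbours within 1 Mb, label checks (Dusp6, Spry4, Sp5, Axin2) and, per list, up to 4 called genes, of which only those that bear on Foxp1 are printed. The fit was tested on simulated counts. Alternatives were DESeq2 1.42.0, its size factors, no filter, thinned counts, limma 3.58.1 voom weights, a fit of only the groups compared, a replicate block and omission of libraries. After seeing the data, plain CPM and omission of replicate 1 of 2i+LIF PO were added for the ratio of lowest to highest library. One further listed marker gene is not reported here.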

Additional observations from a re-analysis of the deposited data

Results flagged for a closer look

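Among the listed genes, Foxp1 apart, 6 values passed an interaction test of medium label with HP against LP (edgeR, adjusted over all tested genes). The share of all tested genes that passed was not counted, so nothing is read from the number 6. The values are given as log2 differences, HP minus LP. For Tdgf1, LIF against 2i+LIF gave 3.53 (adjusted p 0.00681) and CH+LIF against 2i+LIF gave 3.47 (adjusted p 0.0219). In LIF against CH+LIF, Etv4 gave -2.72 (adjusted p 0.0188), Dusp6 -5.75 (adjusted p 0.0301), Egr1 -6.11 (adjusted p 0.0459) and Utf1 -4.10 (adjusted p 0.0459). Etv4, Dusp6 and Egr1 are ERK targets, and Utf1 is a chromatin gene of pluripotent cells. Foxp1 was not tested for such an interaction, because each one holds the LIF LP or 2i+LIF LP libraries that chose it.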

How the results depend on the processing

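Over 300 values of the 10 Foxp1 tests under other settings, 4 passed the threshold, all in CH+LIF LP against PO or the joint test of 5 groups. Without the 2 libraries that stand apart these were 1.70 (adjusted p 0.0345) and a joint adjusted p of 0.0445; 2i+LIF HP, CH+LIF HP and LIF HP against PO turned to 0.25, 0.39 and 0.94, and LIF LP and 2i+LIF LP against PO moved to 4.81 and 0.93. With voom weights they were 1.55 (adjusted p 0.0196) and 0.0199, then 0.28 and 0.82 for CH+LIF HP and LIF HP, and 4.62 and 0.30 for LIF LP and 2i+LIF LP. With thinned counts CH+LIF HP against 2i+LIF HP was -0.088 and LIF HP against PO 0.27. Without PO replicate 1 alone, neither CH+LIF LP against PO nor the joint test of 5 groups passed (joint adjusted p 0.136 by edgeR). The cause of these changes was not tested.

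Leaving out 1 library at a time, log2 fold changes of Foxp1 ranged from -0.44 to 0.76 between CH+LIF HP and 2i+LIF HP (first minus second) and from 0.13 to 1.33 in LIF HP against 2i+LIF HP. Against PO they ranged from -0.084 to 1.71 in CH+LIF LP, from -1.69 to 0.26 in 2i+LIF HP, from -1.40 to 0.39 in CH+LIF HP, from -0.85 to 0.93 in LIF HP, from 3.02 to 4.81 in LIF LP and from -1.79 to 0.53 in 2i+LIF LP. They ranged from 3.88 to 5.29 in LIF LP against 2i+LIF LP, from 0.78 to 2.19 for CH+LIF LP minus 2i+LIF LP and from -0.88 to 0.75 in 2i+LIF HP against 2i+LIF LP. Foxp4 ranged from -0.33 to 0.86 in LIF HP against 2i+LIF HP.

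The replicate numbers are not said to pair libraries, and deviations of same-numbered libraries correlated at over 0.1 in all pairs for 1 of 15 contrasts. With the replicate number as a block, no Foxp1 test changed its call (CH+LIF HP against 2i+LIF HP 0.097, joint test at HP adjusted p 0.838, joint test of 5 groups 0.403).

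Over these settings the genes called varied widely: 99 to 543 (215 in the report) for CH+LIF HP and 2i+LIF HP, 29 to 1420 (1.47% of genes) in LIF HP against CH+LIF HP, 123 to 1427 (402) in LIF HP against 2i+LIF HP, 0 to 66 (1) in CH+LIF HP against CH+LIF LP, 3 to 276 (52) in LIF LP against 2i+LIF LP, 1 to 42 (5) in LIF LP against CH+LIF LP and 399 to 2747 (1060) in LIF HP against LIF LP. Against PO they were 380 to 2325 (884) in CH+LIF LP, 328 to 2150 (1127) in 2i+LIF HP, 200 to 2854 (619) in CH+LIF HP, 424 to 2627 (1306) in LIF HP and 571 to 3274 (1272) in LIF LP. In the joint tests they were 270 to 1740 (545) among HP media and 1425 to 4843 (2009) among 5 groups. Foxp1 had 3 to 69 counts in the libraries outside LIF LP, which limits every comparison among them.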
